A study of Mus musculus with 12 samples.

Results

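The 10 genes described here encode 7 matrix metalloproteinases (Mmp2, Mmp3, Mmp7, Mmp9, Mmp10, Mmp13 and Mmp14) and 3 tissue inhibitors of metalloproteinases (Timp1, Timp2 and Timp3). They were chosen by name, as classical tumour matrix proteases and their inhibitors, from the 24062 genes of a bulk RNA-seq count table of mouse colon tumours. All 10 had enough reads to be among the 15060 genes tested.

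The tumours came from Balb/c bone marrow chimeras. ST2, encoded by Il1rl1, is the receptor of the cytokine IL-33. Recipients that were WT or St2-/- received 2 irradiation doses of 5 Gy, which is lethal without a graft, and then bone marrow from WT or St2-/- donors. After 8 weeks of reconstitution every group, the fully WT controls included, was injected into the peritoneum with azoxymethane (AOM, a carcinogen that induces colon tumours) at 10 mg/kg, 6 times at weekly intervals. Groups are written marrow => host, with 3 libraries in each. WT => WT had the receptor in both compartments, St2-/- => WT lacked it in the marrow, WT => St2-/- lacked it in the host, and St2-/- => St2-/- lacked it in both. The interval from the last injection to tumour collection was 13 or 14 weeks. The mice were 11 males and 1 female (WT => St2-/- replicate 3), of ages the labels do not state. The design separates ST2 on blood-derived cells from ST2 on the cells that survive irradiation, such as epithelium, fibroblasts and vessels, but the host also keeps some radioresistant immune cells. No library came from mice without AOM, so tumour levels have no normal-tissue reference here.

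Matrix metalloproteinases are zinc-dependent endopeptidases that are mostly secreted as inactive pro-enzymes and that cut collagens, proteoglycans, laminins and many cell-surface proteins once activated. TIMPs bind the active site of the enzymes and block them. In colon tumours, Mmp7 is known as a product of the tumour epithelium, whereas most of the others come from fibroblasts, endothelium or infiltrating leukocytes. RNA levels do not measure pro-enzyme activation, protein or proteolytic activity.

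The members Mmp13, Mmp3, Mmp10 and Mmp7, lie within 427.1 kb of chromosome 9 (7272514 to 7699585, GRCm38), a stretch that holds 9 protein-coding Mmp genes in the GENCODE annotation. RefSeq promoter sequences (GRCm38.p6, 250 bases before to 50 after a start site) were found for 8 of the 10 members, and none was found for Mmp2 and Mmp9. The windows were searched for the consensus of AP-1, a Fos and Jun transcription factor known to drive several metalloproteinase genes. Its letters TGANTCA read the same on both strands. They were present once in a window of each of the 4 chromosome 9 genes, in none of the windows of Mmp14, Timp1, Timp2 and Timp3, and in 7.81% of all 32817 promoter windows. TATAAA, searched on both strands, was in the same 4 windows and in 13.6% of all windows, and the 2 motifs share no base. The last 150 bases before the start site are shown for these 4 genes, because Mmp10 and Mmp13 are the pair whose RNA varied together most closely below. Capitals mark TGANTCA and TATAAA.
Mmp13, chr9:7272364-7272513, + strand: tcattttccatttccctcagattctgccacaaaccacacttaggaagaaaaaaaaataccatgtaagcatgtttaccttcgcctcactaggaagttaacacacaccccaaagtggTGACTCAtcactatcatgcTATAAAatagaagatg
Mmp3, chr9:7445672-7445821, + strand: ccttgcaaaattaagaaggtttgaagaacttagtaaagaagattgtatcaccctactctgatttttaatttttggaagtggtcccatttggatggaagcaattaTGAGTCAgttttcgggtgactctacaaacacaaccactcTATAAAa
Mmp10, chr9:7502192-7502341, + strand: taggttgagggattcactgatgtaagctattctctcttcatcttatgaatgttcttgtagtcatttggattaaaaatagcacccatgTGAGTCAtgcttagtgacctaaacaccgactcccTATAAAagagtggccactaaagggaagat
Mmp7, chr9:7691940-7692089, + strand: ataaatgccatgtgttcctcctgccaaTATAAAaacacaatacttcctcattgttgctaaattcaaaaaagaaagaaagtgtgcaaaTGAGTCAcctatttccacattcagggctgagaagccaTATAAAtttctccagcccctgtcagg
The AP-1 letters began at position -63 from the start site in Mmp10 and Mmp7, at -46 in Mmp3 and at -35 in Mmp13, where the match was TGACTCA instead of the TGAGTCA of the others. A second annotated Mmp7 start had neither motif. A match describes letters only, since no binding or chromatin was measured.

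The other members are dispersed. Mmp2 lies on chromosome 8 (92827291 to 92853420), Mmp9 on chromosome 2 (164940780 to 164955850), Mmp14 on chromosome 14 (54431612 to 54445364), Timp1 on chromosome X (20870166 to 20874735), Timp2 on chromosome 11 (118301069 to 118355740) and Timp3 on chromosome 10 (86300372 to 86349506). Timp1 sits inside Syn1 and Timp3 inside Syn3, both on the opposite strand, and 21.3% of the exon bases of Timp3 overlap exons of Syn3. Syn3 had 31 to 100 counts per library and Syn1 3 to 70. Mmp7 shares 11.5% of its exon bases with the antisense gene AV064505. No label states whether the counting used strand, so reads of these overlaps cannot be told apart.

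Gene counts per library lay between 10293818 and 12962496. Il1rl1, the targeted gene, was at 36.5 to 275 CPM (counts scaled to library size) in the 6 libraries of WT hosts and at 7.3 to 25.0 CPM in the 6 of St2-/- hosts, without overlap. Some reads remained in St2-/- => St2-/- (7.91 to 13.4 CPM). Within each host the marrow groups overlapped, so Il1rl1 levels do not separate the marrow genotypes. All WT hosts carry sample numbers of one form in the labels and all St2-/- hosts numbers of another, so a cohort and the host genotype cannot be told apart. A score here is the mean log2 CPM of a marker list fixed with the design. Smooth muscle scores were 6.80 to 8.03 in St2-/- => WT replicates 1 and 2 and WT => St2-/- replicates 2 and 3, and 3.74 to 5.19 in the other 8 libraries. Epithelium scores were 8.77 to 10.4, so markers of colon epithelium were abundant in every library.

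To compare levels between genes, CPM were divided by the length of each gene's merged exons in kilobases. Mmp7 (matrilysin, the small epithelial enzyme without a haemopexin domain) had the highest mean, 227 ± 105 CPM per kb (SD, n = 12), and Mmp10 (stromelysin 2) followed with 69.3 ± 54.0. Mmp14, the membrane-anchored enzyme known to activate pro-MMP2, had 35.3 ± 8.86 CPM per kb, Mmp13 (the main interstitial collagenase of mice) 29.7 ± 26.5, and Timp2 28.9 ± 9.84. Lower means were found for the gelatinases Mmp2 (22.9 ± 11.3) and Mmp9 (18.0 ± 12.3), then Timp1 (16.8 ± 6.24), Timp3 (11.5 ± 3.11) and Mmp3 (stromelysin 1, 4.55 ± 3.39 CPM per kb). Within single libraries, Mmp7 was the highest of the 10 in 11 of 12 and Mmp3 the lowest in 12 of 12. The exception was St2-/- => St2-/- replicate 1, where Mmp10 (201 CPM per kb) exceeded Mmp7 (181 CPM per kb). Each pair of neighbours in the order of means had overlapping ranges over the 12 libraries.

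**Figure D1:**
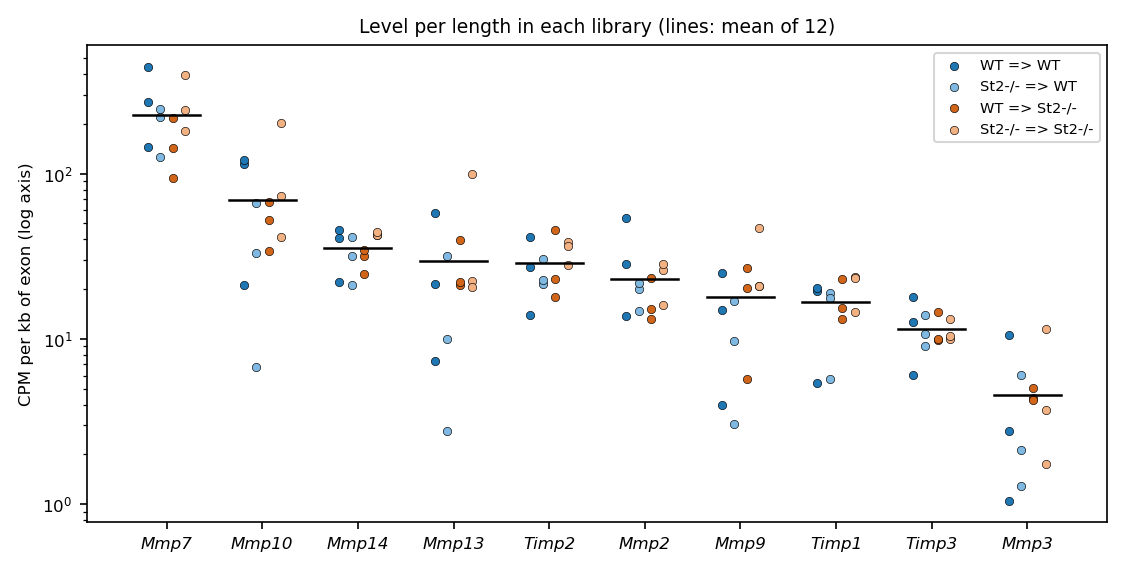
Level of each gene per length (CPM per kb of exon, log axis) in 12 tumour libraries; points are libraries, coloured by group, and lines are means over the libraries. Mmp7 stands at a mean of 227 and Mmp3 at 4.55, and Mmp10, Mmp13, Mmp9 and Mmp3 spread more widely than Mmp14 and Timp3.

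The stromelysins, the collagenase and Mmp9 varied far more between tumours than the other members. The highest library exceeded the lowest 36.0-fold for Mmp13, 30.0-fold for Mmp10, 15.5-fold for Mmp9 and 10.9-fold for Mmp3. The same ratio was 4.67 for Mmp7, 4.39 for Timp1, 4.06 for Mmp2, 3.27 for Timp2, 2.97 for Timp3 and 2.14 for Mmp14. The biological coefficient of variation, edgeR's estimate of the spread within groups, was 0.740 for Mmp13, 0.707 for Mmp3, 0.672 for Mmp10 and 0.621 for Mmp9, against a median of 0.238 over all tested genes. Of the tested genes, 96.3% had a lower value than Mmp13 and 92.7% a lower value than Mmp9. For Mmp14 (0.256) and Timp3 (0.293) it was near that median.

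The stromelysins and the collagenase were each spread widely within groups. Mmp10, which degrades proteoglycans and activates other pro-MMPs, was at 36.6, 197 and 210 CPM in WT => WT, 56.8, 11.6 and 115 in St2-/- => WT, 116, 89.7 and 58.9 in WT => St2-/-, and 347, 70.9 and 125 in St2-/- => St2-/- (replicates 1, 2 and 3 in turn). Mmp13, which cuts fibrillar collagens, was at 19.6, 57.2 and 155 CPM in WT => WT, 26.6, 7.37 and 84.6 in St2-/- => WT, 106, 56.9 and 59.3 in WT => St2-/-, and 266, 59.6 and 55.3 in St2-/- => St2-/-. For both genes St2-/- => St2-/- replicate 1 was the highest library and St2-/- => WT replicate 2 the lowest, and all 4 groups overlapped. Mmp3, which activates several pro-MMPs, was far scarcer, at 1.89, 5.02 and 19.1 CPM in WT => WT, 10.9, 2.31 and 3.82 in St2-/- => WT, 9.14, 7.91 and 7.73 in WT => St2-/-, and 20.6, 3.17 and 6.73 in St2-/- => St2-/-. Its WT => St2-/- libraries were close together, while the highest library exceeded the lowest 10.1-fold in WT => WT, 4.69-fold in St2-/- => WT and 6.49-fold in St2-/- => St2-/-.

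Mmp7, known as a Wnt-driven gene of intestinal tumour epithelium, was at 155, 470 and 290.5 CPM in WT => WT, 263, 134 and 235 in St2-/- => WT, 232, 101 and 152 in WT => St2-/-, and 194, 258 and 424 in St2-/- => St2-/-. The lowest library, WT => St2-/- replicate 2, also had the lowest epithelium score of the 12 (8.77), and its Wnt target score was the highest (7.58). Other libraries went the other way. The highest epithelium scores, 10.4 in St2-/- => WT replicate 2 and 10.2 in WT => WT replicate 1, came with Mmp7 at 134 and 155 CPM. The highest Mmp7 libraries, at 470 and 424 CPM, had epithelium scores of 9.56 and 9.24. The relation of Mmp7 to these scores was not tested. The groups overlapped.

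Of the gelatinases, which cut denatured and basement-membrane collagen, Mmp9 was at 14.1, 88.1 and 52.9 CPM in WT => WT, 34.3, 10.8 and 60.4 in St2-/- => WT, 71.7, 95.5 and 20.1 in WT => St2-/-, and 167, 73.7 and 73.9 in St2-/- => St2-/-. All 3 St2-/- => St2-/- libraries lay above all 3 St2-/- => WT libraries, and 23.2% of all tested genes did not overlap between these groups. Neutrophils are a known store of MMP9, and neutrophil scores were 0.269 in WT => St2-/- replicate 2 and 2.39 to 5.01 in the other libraries; their part in the Mmp9 levels was not tested. Mmp2, made mainly by stromal cells, was at 46.6, 182 and 95.9 CPM in WT => WT, 67.5, 49.5 and 73.5 in St2-/- => WT, 44.8, 78.5 and 51.1 in WT => St2-/-, and 88.6, 53.9 and 95.6 in St2-/- => St2-/-. WT => WT replicate 2 alone exceeded 100 CPM.

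Mmp14 was the steadiest member, at 132, 271 and 242 CPM in WT => WT, 188, 127 and 247 in St2-/- => WT, 189, 207 and 147 in WT => St2-/-, and 254, 253 and 265 in St2-/- => St2-/-. The 3 St2-/- => St2-/- libraries were nearly equal and lay above every library of St2-/- => WT and of WT => St2-/-, whereas WT => WT replicate 2 was higher still. In these comparisons 23.2% and 8.8% of all tested genes did not overlap.

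Among the inhibitors, Timp1, a secreted and cytokine-inducible inhibitor that binds pro-MMP9, ranged from 4.81 CPM (WT => WT replicate 1) and 5.06 CPM (St2-/- => WT replicate 2) to 21.1 CPM (St2-/- => St2-/- replicate 1), and the other 9 libraries lay between 11.8 and 20.8 CPM. Timp2, which bridges pro-MMP2 to MMP14, ranged from 54.4 CPM in WT => WT replicate 1 to 178 CPM in WT => St2-/- replicate 2. Timp3, the inhibitor held in the matrix that also blocks ADAM proteases, ranged from 49.5 CPM in WT => WT replicate 1 to 147 CPM in WT => WT replicate 3. The widest range of Timp3 was thus inside a single group.

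**Figure D2:**
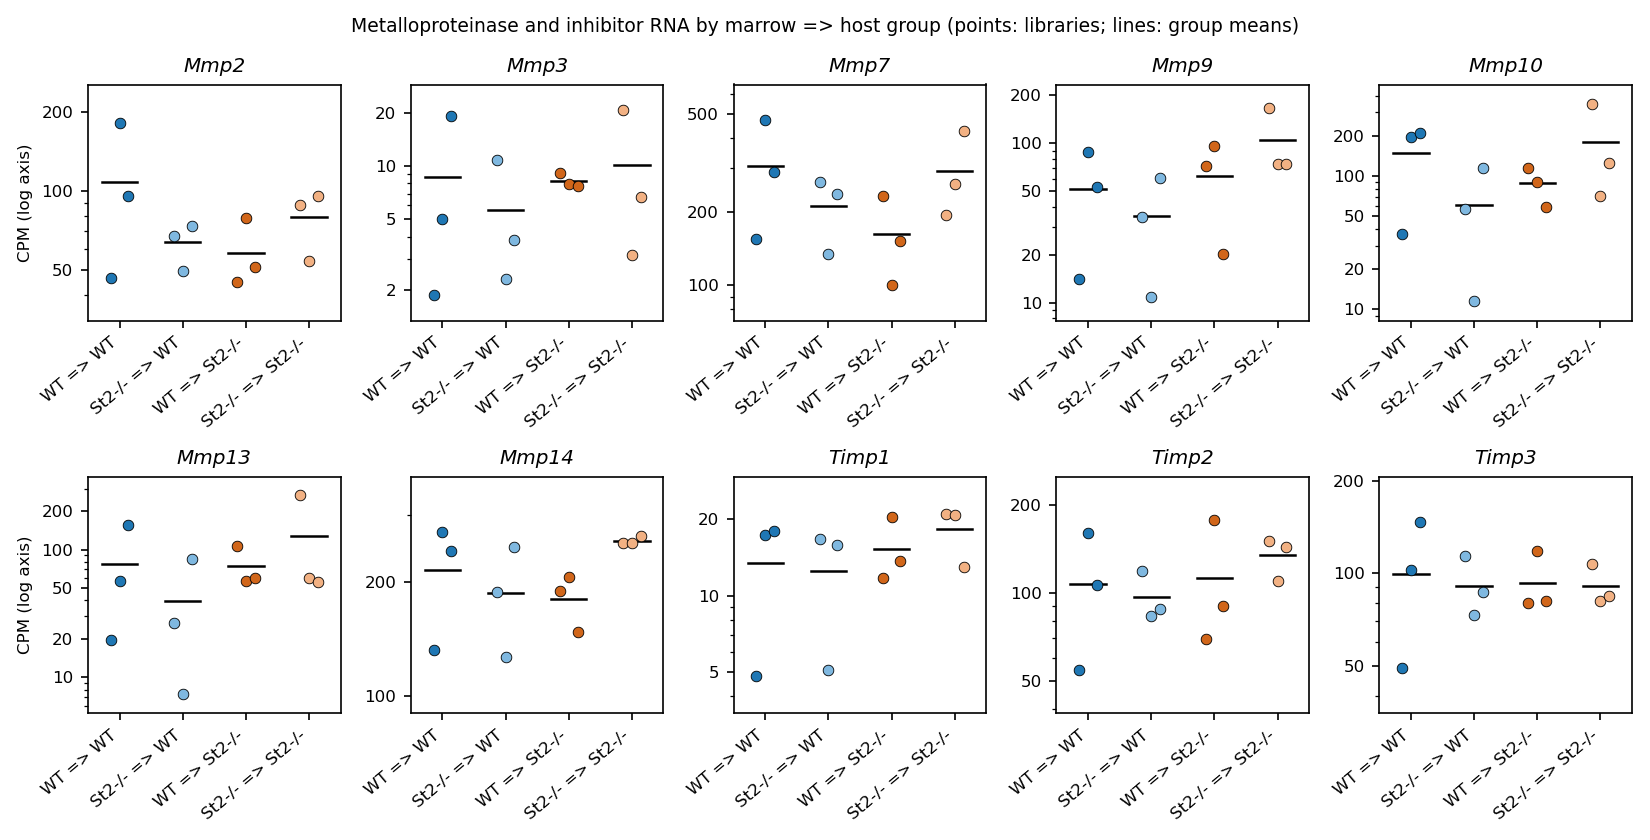
CPM (log axis) of each of the 10 genes by marrow => host group; points are the 3 libraries of a group and lines are group means. Groups overlap for nearly every gene. Mmp9 and Mmp14 in St2-/- => St2-/- lie wholly above St2-/- => WT, a comparison in which 23.2% of all tested genes do not overlap.

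A pair of libraries was low for nearly the whole set. St2-/- => WT replicate 2 was among the 3 lowest libraries for 10 of 10 members and WT => WT replicate 1 for 9 of 10. At the other end, St2-/- => St2-/- replicate 1 was the highest library for 5 members and among the 3 highest for 7, and WT => WT replicates 2 and 3 were each among the 3 highest for 6. The low libraries therefore came from both WT-host groups, and one WT-host group also held high ones. The same 2 low libraries had the highest epithelium scores (10.4 and 10.2), the lowest Wnt target scores (5.70 and 5.62), the lowest endothelium scores (3.75 and 3.59) and the lowest squamous epithelium scores (1.82 and 1.81). Their smooth muscle scores were 6.80 and 3.84, and their fibroblast scores 4.82 and 4.04, the latter the lowest of the 12. The part of these scores in the low levels was not tested, and in bulk tissue fewer cells of a type and less RNA per cell cannot be told apart.

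**Figure D3:**
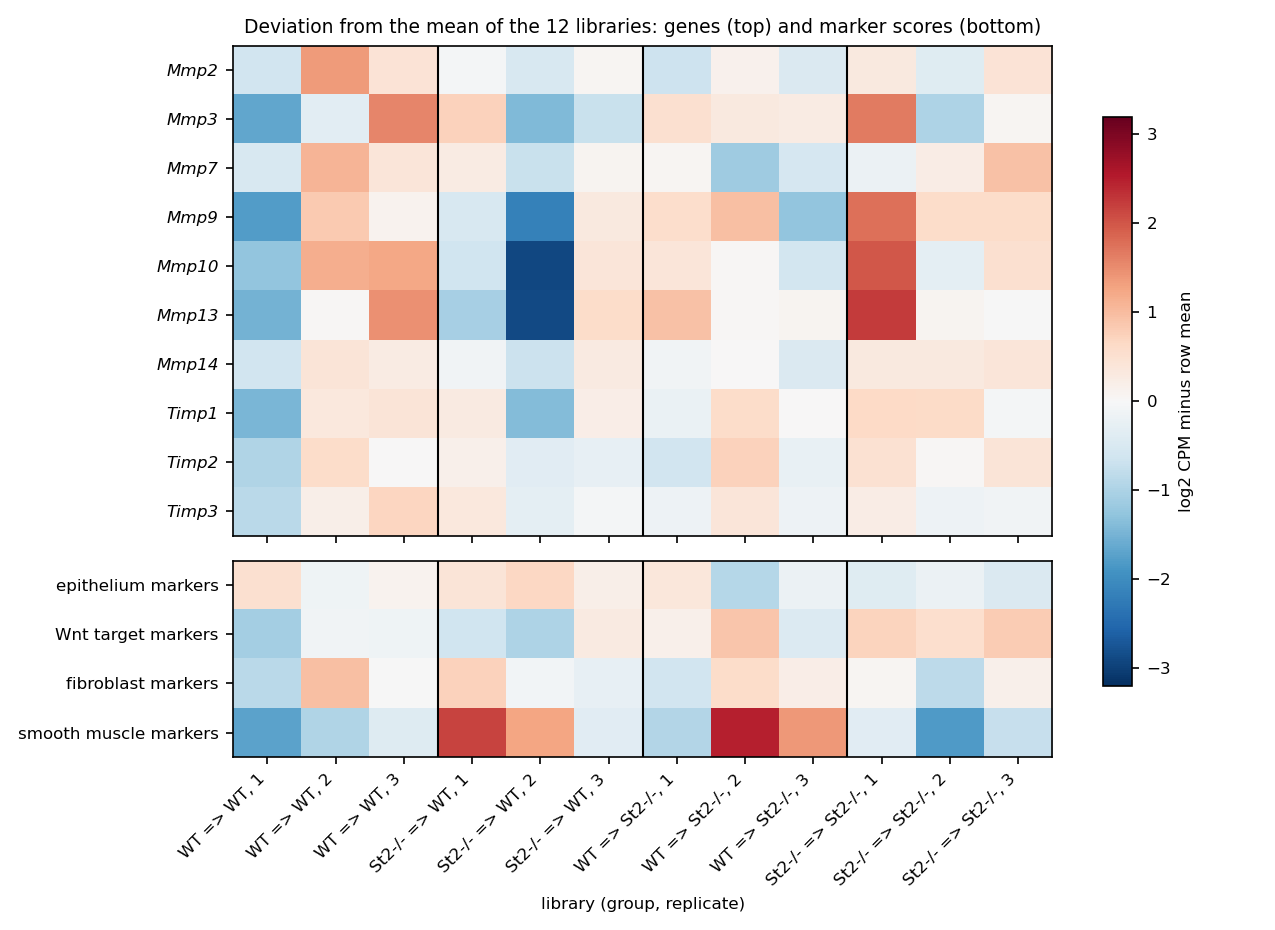
Log2 CPM minus the mean over 12 libraries (colour scale) for the 10 genes and, in the lower panel, 4 marker scores; each column is 1 library and black lines part the groups. WT => WT replicate 1 and St2-/- => WT replicate 2 are below the median for all 10 genes, and St2-/- => St2-/- replicate 1 is the highest library for 5.

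Sums per length gave the balance of RNA for proteases and inhibitors. The summed CPM per kb of the 7 metalloproteinases was 3.09 to 9.63 times that of the 3 inhibitors, lowest in WT => St2-/- replicate 2 and highest in WT => St2-/- replicate 1, which belong to the same group. Mmp7 was the largest term of the protease sum in 11 of 12 libraries. The library with the lowest ratio had both the lowest Mmp7 (94.3 CPM per kb) and the highest Timp2 (45.6 CPM per kb). Its ratio was therefore low on the protease side and on the inhibitor side. The ratio of Mmp9 to Timp1 per length ran from 0.368 in WT => St2-/- replicate 3 to 1.99 in St2-/- => St2-/- replicate 1, and that of Mmp14 to Timp2 from 0.759 to 1.83.

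Loss of ST2 in the host, averaged over both marrows, left no member past the test. The mean log2 fold change (St2-/- hosts over WT hosts) was positive for 7 of the 10 members with a median of 0.32, while 49.8% of all tested genes were positive. Epithelium markers moved with the host (0 of 8 positive, median -0.45, 0 called). Other marker lists moved as well, 0 of them called. Medians were 1.89 for mast cells (6 of 6 positive), 0.87 for Wnt targets (8 of 8) and 0.47 for endothelium (5 of 5). They were -1.16 for neutrophils (1 of 6 positive) and -0.57 for macrophages (0 of 7). With the epithelium score as a covariate, an alternative chosen after seeing the data, 4 of the 7 positive members turned negative (Mmp10 -0.0034, Mmp14 -0.18, Timp1 -0.21 and Timp2 -0.48). The part of any cell type was not tested. Without a covariate, the largest member values were Mmp9 at 0.92 (SE 0.54, edgeR adjusted p = 0.351), Mmp13 at 0.81 (SE 0.65, edgeR adjusted p = 0.509) and Mmp10 at 0.41 (SE 0.58, edgeR adjusted p = 0.728). The negative ones were Mmp2 at -0.29 (SE 0.30), Mmp7 at -0.22 (SE 0.32) and Timp3 at -0.05 (SE 0.24). With edgeR's quasi-likelihood test and Benjamini-Hochberg adjustment over all tested genes, 0 of 10 members passed an adjusted p of 0.05, against 1.37% of all tested genes. At an unadjusted p under 0.05, 0 of 10 members passed, against 20.6% of all genes, and DESeq2 and limma-voom called 0 members against 7.96% and 12.2% of genes. The 6 libraries of one host did not lie wholly above those of the other for any member (0 of 10, against 2.68% of genes).

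The intervals of the host difference were narrow for some members and wide for others. The 95% interval of the ratio of St2-/- to WT hosts ran from 0.793 to 1.46 for Mmp14, from 0.674 to 1.38 for Timp3, from 0.784 to 1.86 for Timp2, and from 0.519 to 1.29 for Mmp2. For Mmp7 it was 0.527 to 1.39 and for Timp1 0.733 to 2.28. For Mmp13 it spanned 0.647 to 4.75, for Mmp9 0.834 to 4.32, for Mmp3 0.513 to 3.32 and for Mmp10 0.546 to 3.25, so these intervals of 6 libraries against 6 include a ratio of 3 for each of these 4 genes. Without St2-/- => St2-/- replicate 1 the log2 fold change of Mmp10 was -0.018 and that of Mmp3 -0.12, without WT => WT replicate 2 those of Mmp2 and Mmp7 were 0.012 and 0.0029, without WT => WT replicate 1 that of Mmp14 was -0.010, and that of Timp3 turned positive without any of 3 libraries (up to 0.15 without WT => WT replicate 3).

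With WT marrow, WT => St2-/- was compared with WT => WT. The log2 ratio was -0.92 for Mmp7 (SE 0.45, edgeR adjusted p = 0.340), -0.89 for Mmp2 (SE 0.42, edgeR adjusted p = 0.324) and -0.74 for Mmp10 (SE 0.83, edgeR adjusted p = 0.675). Mmp14 (-0.25), Timp3 (-0.10), Mmp3 (-0.07) and Mmp13 (-0.06) were below 0, and Mmp9 (0.27), Timp1 (0.19) and Timp2 (0.07) above it. Thus 3 of 10 were positive, against 50.9% of all tested genes, and the members' median was -0.08. The edgeR test called 0 of 10 members, against 0.159% of tested genes, and 0 of 10 had an unadjusted p under 0.05, against 16.7%. DESeq2 and limma-voom called 0 members, against 4.96% and 2% of genes, and the groups overlapped for all 10 members (17.7% of genes did not overlap). Markers moved with this comparison, 0 of them called. Medians were 3.16 for mast cells (6 of 6 positive), 2.80 for neurons and glia (6 of 6) and 2.48 for smooth muscle (9 of 9). They were -2.43 for neutrophils (0 of 6 positive) and -1.17 for macrophages (0 of 7). Their part was not tested. The smooth muscle covariate fit cannot settle it, because of these groups only WT => St2-/- held high scores. In the 2 WT => St2-/- libraries with high smooth muscle scores (replicates 2 and 3), Mmp7 was at 101 and 152 CPM and in the third at 232.

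With St2-/- marrow, St2-/- => St2-/- was compared with St2-/- => WT, and 9 of 10 members had a positive log2 fold change, against 50.4% of all tested genes, with a median of 0.51. Mmp13 had 1.68 (SE 0.94, edgeR adjusted p = 0.482), Mmp9 1.58 (SE 0.77, edgeR adjusted p = 0.436) and Mmp10 1.57 (SE 0.84, edgeR adjusted p = 0.463). Mmp3 had 0.84 (SE 0.87), Timp1 0.55 (SE 0.52), Timp2 and Mmp7 0.47 (SE 0.40 and 0.45), Mmp14 0.46 (SE 0.28), Mmp2 0.32 (SE 0.42) and Timp3 -0.0033 (SE 0.33). Smooth muscle markers had a median of -2.07 here (0 of 9 positive, 0 called). Other marker lists moved as well, 0 of them called. Medians were -2.47 for neurons and glia (0 of 6 positive), 0.98 for Wnt targets (8 of 8) and -0.59 for epithelium (0 of 8). The part of any cell type was not tested. Groups did not overlap for 2 members, Mmp9 and Mmp14, against 23.2% of all tested genes, a share near the background. The edgeR test called 0 of 10 members, against 0.0598% of genes, and 0 of 10 at an unadjusted p under 0.05, against 12%; DESeq2 and limma-voom called 0 members, against 1.74% and 12.9% of genes. Without St2-/- => St2-/- replicate 1 the value of Mmp3 was -0.16, and the sign for Timp3 turned without any of 5 libraries.

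The difference between the 2 host comparisons was tested directly as an interaction (the host difference with St2-/- marrow minus that with WT marrow). It was positive for 10 of 10 members, with a median of 1.07, against 49% of all tested genes. Markers of other cell types moved further in the same contrast, with 0 called. Their medians were -4.52 for smooth muscle (0 of 9 positive, 9 at an unadjusted p under 0.05), -5.30 for neurons and glia (0 of 6 positive, 6 at that p), 1.13 for macrophages (7 of 7 positive) and 1.93 for neutrophils (6 of 6 positive). With the smooth muscle score as a covariate the value stayed positive for 10 of 10 members. With the epithelium score it turned negative for Timp1, Timp2 and Timp3. High smooth muscle scores fell only in St2-/- => WT (replicates 1 and 2) and WT => St2-/- (replicates 2 and 3). That score and this contrast can therefore hardly be separated by the fit. The part of any cell type was not tested. The interaction was 2.31 for Mmp10 (SE 1.18, edgeR adjusted p = 0.671), 1.74 for Mmp13 (SE 1.30, 0.767), 1.39 for Mmp7 (SE 0.64, 0.661), 1.30 for Mmp9 (SE 1.07, 0.790) and 1.22 for Mmp2 (SE 0.60, 0.669). It was 0.91 for Mmp3 (SE 1.22), 0.70 for Mmp14 (SE 0.40), 0.40 for Timp2 (SE 0.56), 0.35 for Timp1 (SE 0.74) and 0.09 for Timp3 (SE 0.47). No member passed the edgeR test, as with all other genes (0%), and 0 of 10 had an unadjusted p under 0.05, against 7.6%; DESeq2 and limma-voom called 0 members, against 0.619% and 0.0266% of genes. The 10 values come from the same 12 tumours, so they are not 10 separate observations. Signs turned on leaving out 1 library for Mmp3 (-0.42 without WT => WT replicate 3, -0.098 without St2-/- => St2-/- replicate 1), for Timp1 (-0.0031 without St2-/- => WT replicate 2), for Timp2 (-0.0050 without WT => WT replicate 2) and for Timp3 (to -0.30 without WT => WT replicate 3).

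**Figure D4:**
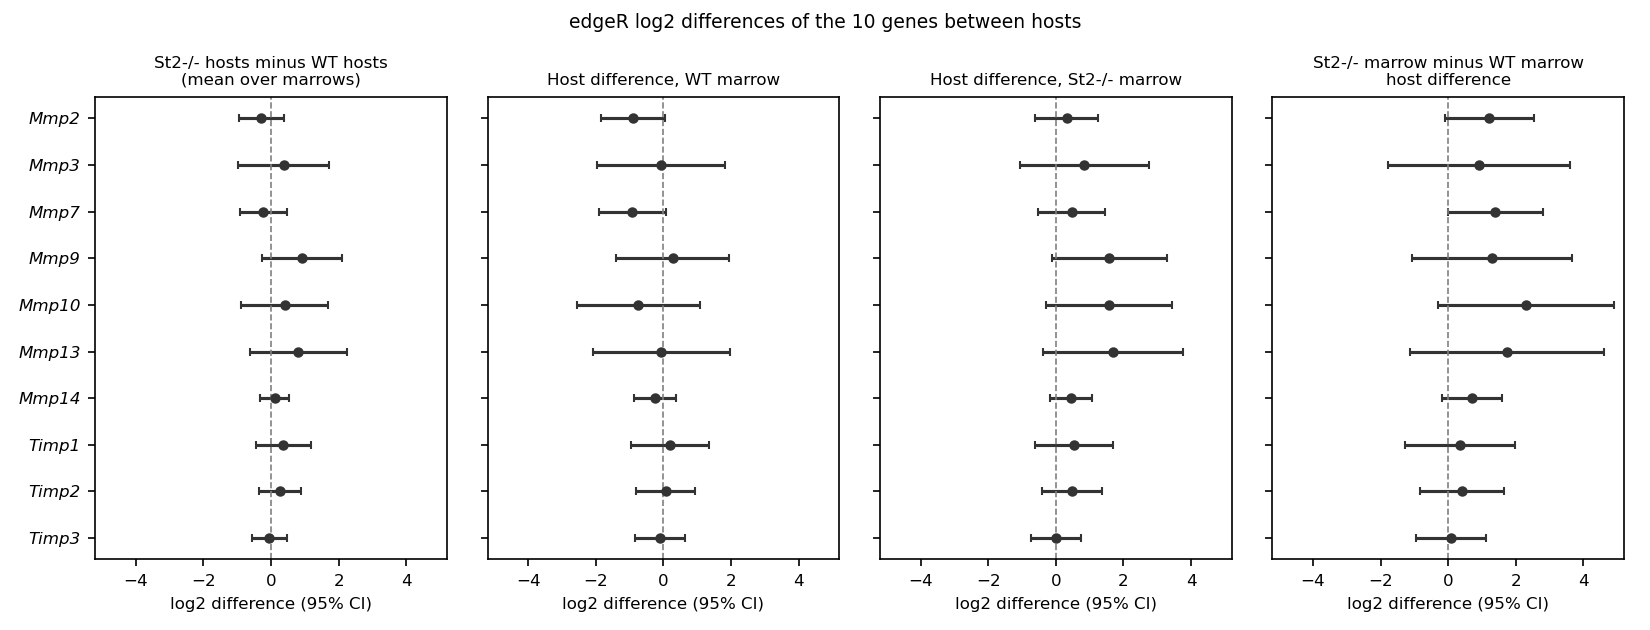
Log2 difference of St2-/- minus WT hosts for each gene, averaged over marrows, with WT marrow and with St2-/- marrow, and (right panel) the second of these subtracted from the third; points are edgeR estimates and bars 95% intervals. Every interval includes 0, and the points of the right panel are above 0 for all 10 genes.

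Loss of ST2 in the marrow left no member past the test in either host. In WT hosts (St2-/- => WT against WT => WT) all log2 fold changes were negative, so that 0 of 10 members were positive, against 52% of genes, with a median of -0.54. In St2-/- hosts (St2-/- => St2-/- against WT => St2-/-) 9 of 10 were positive, against 48.4% of genes, with a median of 0.48. Averaged over both hosts 5 of 10 were positive, against 49.1% of genes, with a median of -0.01. Smooth muscle markers were at a median of 2.30 in WT hosts (9 of 9 positive) and -2.35 in St2-/- hosts (0 of 9 positive), and neuron and glia markers at 2.90 (6 of 6 positive) and -2.75 (0 of 6 positive), 0 of them called. Their part in the members' directions was not tested. The smooth muscle covariate fit cannot settle it, because high scores fell only in St2-/- => WT and WT => St2-/-. Leaving out 1 library at a time turned the sign of 10 of 120 member values in WT hosts, 5 of 120 in St2-/- hosts and 30 of 120 over both. The marrow groups did not overlap for Mmp14 in St2-/- hosts (1 of 10 members, against 8.8% of genes), and they overlapped for all 10 members in WT hosts and over both hosts, where 10.3% and 0.113% of genes did not overlap. In these 3 comparisons edgeR called 0 of 10 members and 0% of all genes. At an unadjusted p under 0.05 it called 0 of 10 members, against 6.04% of genes in WT hosts, 4.05% in St2-/- hosts and 2.76% over both. DESeq2 and limma-voom called 0 members, against 0.12% and 0.0266% of genes in St2-/- hosts and 0% in WT hosts and over both.

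Fully deficient chimeras (St2-/- => St2-/-) against fully WT ones had 7 of 10 positive values, against 48.6% of genes, with a median of 0.28. Mmp13, Mmp9 and Mmp10 were among the 7, as were Mmp3, Mmp14, Timp1 and Timp2, and leaving out 1 library at a time turned 11 of 120 signs. The edgeR test called 0 of 10 members, against 0.0266% of genes, and 0 of 10 at an unadjusted p under 0.05, against 13.7%. DESeq2 and limma-voom called 0 members, against 3.56% and 11.2% of genes, and the groups overlapped for all 10 members (23.8% of genes did not). The comparisons share groups, so their values are not independent of each other.

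Pairs of members with a known partnership or a shared neighbourhood were compared over the 12 libraries. Other gene pairs were not tested as a background, so the p-values do not show that partners vary together more closely than other genes. Mmp10 and Mmp13, which lie in the chromosome 9 cluster, had Pearson r = 0.927 of log2 CPM (permutation p = 2e-05, adjusted over 8 pairs 0.00016) and Spearman rho = 0.762 (permutation p = 0.00567, adjusted 0.0113). A part of the promoter letters in this relation was not tested. The 2 libraries farthest from the median of Mmp10 were St2-/- => St2-/- replicate 1 and St2-/- => WT replicate 2. Without them r was 0.782 (permutation p = 0.00698). Within WT hosts it was 0.948 (exact permutation p = 0.00694, n = 6) and within St2-/- hosts 0.884 (exact permutation p = 0.0653, n = 6). The relation therefore held without the 2 farthest libraries, with WT => WT replicate 1 kept. It had the same sign and a similar size in both hosts.

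Mmp2 and Timp2, an enzyme and its bridge to MMP14, had r = 0.750 (permutation p = 0.00425, adjusted 0.0104) and rho = 0.776 (permutation p = 0.00408, adjusted 0.0113). Their r was 0.718 without the 2 farthest libraries, 0.860 in WT hosts and 0.891 in St2-/- hosts (exact permutation p = 0.0389 and 0.0319, n = 6 each). Mmp14 and Mmp2, activator and substrate, had r = 0.719 (permutation p = 0.00694, adjusted 0.0111) and rho = 0.776 (permutation p = 0.00414, adjusted 0.0113), with 0.657 without the farthest libraries, 0.855 in WT hosts and 0.640 in St2-/- hosts (exact permutation p = 0.025 and 0.140, n = 6 each). Mmp2 and Timp3 had r = 0.593 (permutation p = 0.0450, adjusted 0.0450) and rho = 0.769 (permutation p = 0.00476, adjusted 0.0113). Their r was 0.745 without the farthest libraries, 0.613 in WT hosts and 0.617 in St2-/- hosts (exact permutation p = 0.192 and 0.261, n = 6 each). That of Mmp2 and Timp3 missed the threshold on leaving out any of 9 of the 12 libraries (0.538 to 0.724 over all 12 omissions).

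The other 4 pairs left out WT => WT replicate 1 and St2-/- => WT replicate 2, both of WT hosts. These were farthest from the median of the first gene named, and without them r missed a permutation p of 0.05. Mmp14 and Mmp2 lost the same 2 libraries, whereas the pairs of Mmp2 with Timp2 and Timp3 kept both. The omissions of different pairs are therefore not alike. Mmp9 and Timp1 had r = 0.824 (permutation p = 0.0018, adjusted 0.0072) and rho = 0.699 (permutation p = 0.0144, adjusted 0.0231), with r = 0.458 (permutation p = 0.184) without those libraries. Within WT hosts it was 0.925 and within St2-/- hosts 0.536 (exact permutation p = 0.0333 and 0.336, n = 6 each). Mmp14 and Timp2 had r = 0.672 (permutation p = 0.018, adjusted 0.0205) and rho = 0.664 (permutation p = 0.0221, adjusted 0.0295), with r = 0.455 (permutation p = 0.189) without them. Within WT hosts it was 0.735 and within St2-/- hosts 0.553 (exact permutation p = 0.0958 and 0.268, n = 6 each). Both r values were smaller without the 2 low libraries. Leaving them out also narrows the range of the first gene, so a lost p does not show that these relations rest on them.

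The Mmp3 pairs had their higher r in St2-/- hosts, which hold neither low library. Those hosts include St2-/- => St2-/- replicate 1, the highest library for Mmp3, Mmp10 and Mmp13 (20.6, 347 and 266 CPM). Within St2-/- hosts r was not computed without that library, and a difference from the pairs above was not tested. Mmp3 and Mmp13 had r = 0.740 (permutation p = 0.00519, adjusted 0.0104) and rho = 0.594 (permutation p = 0.0447, adjusted 0.0447), with r = 0.531 (permutation p = 0.112) without the 2 libraries. Within St2-/- hosts it was 0.819 and within WT hosts 0.670 (exact permutation p = 0.0264 and 0.15, n = 6 each). Mmp3 and Mmp10 had r = 0.706 (permutation p = 0.00885, adjusted 0.0118) and rho = 0.608 (permutation p = 0.0388, adjusted 0.0443), with r = 0.482 (permutation p = 0.161) without the 2 libraries. Within St2-/- hosts it was 0.801 and within WT hosts 0.637 (exact permutation p = 0.0944 and 0.176, n = 6 each). All values of a library share its depth and cell composition.

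**Figure D5:**
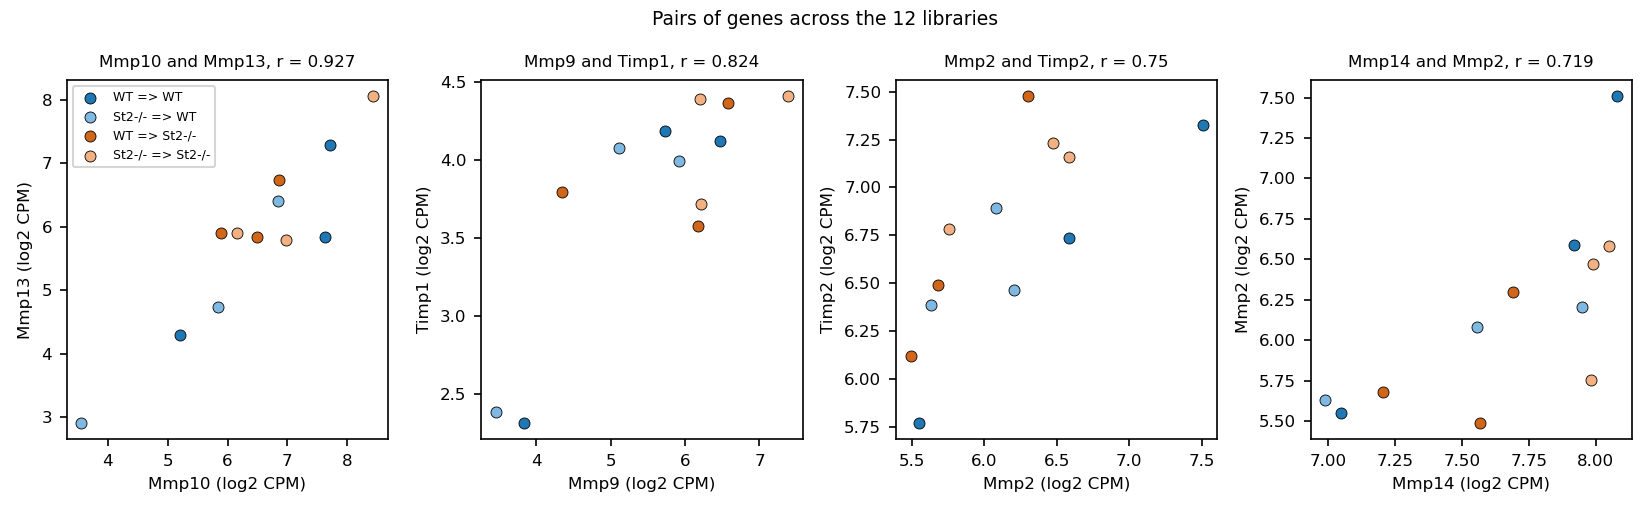
Log2 CPM of 2 genes in each of 12 libraries for 4 of the tested pairs; points are libraries coloured by group. Mmp10 and Mmp13 increase together over the whole range (r = 0.927), whereas for Mmp9 and Timp1 the 2 libraries at the lower left stand apart from the other 10.

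Likeness to all other tested genes was measured as the mean absolute difference of standardized log2 CPM over the 12 libraries, in SD units, where the median gene differed from a member by 1.04 to 1.10. Mmp13 was nearest to Ibsp, a bone matrix glycoprotein (0.276), and then to Mmp10 (0.285). Mmp10 was nearest to Adamts4, an aggrecan-cleaving protease (0.264), and Il11, an interleukin-6 family cytokine (0.264). Mmp3 was nearest to Adamts6 (0.276) and Tnc, the matrix protein tenascin C (0.371). Mmp2 was nearest to Spon1, spondin 1 (0.162), and Srpx2 (0.169).

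The remaining members had nearest genes of other kinds. These were Ift122 (0.244) and Bmp7 (0.253) for Mmp9, Pcdhb16 (0.278) and Fxyd3 (0.360) for Mmp7, and Sccpdh (0.264) and Def8 (0.269) for Mmp14. For the inhibitors they were Nfatc4 (0.283) and Galnt2 (0.322) for Timp1, Fbxo17 (0.260) and Dennd5a (0.273) for Timp2, and Lifr (0.292) and Mmd (0.329) for Timp3. The nearest member to Timp2 was Mmp2 (0.571), with 573 tested genes nearer, whereas for Mmp10 only 2 genes were nearer than its nearest member, Mmp13. Mmp7 lies in the same cluster and has both promoter motifs, but its nearest member was Mmp2 (0.631), with 359 tested genes nearer. The nearest member to Mmp2 was Timp2, with 260 tested genes nearer. That of Timp1 was Mmp14 and that of Mmp14 was Mmp9, with 125 and 42 tested genes nearer. The nearest genes were picked from 15060 over 12 libraries, and their order is a description of these tumours.

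The rest of the protease system was read from lists of pathway genes in the comparison between hosts averaged over marrows, where the background of called genes is the 1.37% given above. Of 16 further metalloproteinases, 9 were tested and 0 rose or fell. The host difference of Mmp12 (macrophage elastase) was 0.89 on the log2 scale (SE 0.27, edgeR adjusted p = 0.126), and that of Mmp11 (stromelysin 3) was 0.96 (SE 0.44, edgeR adjusted p = 0.251). Of 4 further inhibitors, 3 were tested and 0 passed, with Reck, a membrane-anchored inhibitor, at 0.085 and A2m, a plasma protease trap, at 0.14. Of 16 ADAM and ADAMTS proteases, all tested, 0 passed, with Adamts1 at -0.97 and Adamts9 at 0.75 (edgeR adjusted p = 0.216 and 0.223).

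The plasminogen system, whose protease plasmin can activate pro-MMPs, held the only called gene of the pathway lists. Of its 11 genes 9 were tested, 0 rose and 1 fell. Plgrkt, a plasminogen receptor of the cell surface, had a mean of 110 ± 17.0 CPM in WT => WT and 130 ± 45.6 in St2-/- => WT, against 71.2 ± 18.2 in WT => St2-/- and 57.4 ± 9.88 in St2-/- => St2-/- (SD, n = 3 each). Libraries of WT hosts lay at 88.2 to 179 CPM and those of St2-/- hosts at 50.5 to 84.8 CPM, without overlap. It fell by 0.91 on the log2 scale (SE 0.19, edgeR adjusted p = 0.0473). The call held in 8 of 22 alternatives, and with the epithelium score as a covariate, an alternative chosen after seeing the data, the value was -0.48 (edgeR adjusted p = 0.399).

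Of 8 activation and binding partners 0 passed, with the endocytic receptor Lrp1, which clears protease complexes, at -0.41 and the proprotein convertase Pcsk5 at 0.67 (edgeR adjusted p = 0.119 and 0.200). Of 14 AP-1, ETS and NF-kB family factors 0 passed, 6 of 14 were positive and the median was -0.05. The AP-1 subunits with the smallest p, Jund and Fosl1, had -0.36 and -0.99 (edgeR adjusted p = 0.194 and 0.198), and the subunits Jun and Fosl2, named after their values were seen, had 0.35 and 0.24 (edgeR adjusted p = 0.203 and 0.213). Of 10 cytokines known to induce metalloproteinases 9 were tested and 0 passed, with a median of -0.35. Tnf had -1.01 (SE 0.22, edgeR adjusted p = 0.0502) and Lif -0.92 (edgeR adjusted p = 0.123). Of 10 matrix substrates 0 passed, with fibronectin, Fn1, at 0.45 and elastin, Eln, at -0.41 (edgeR adjusted p = 0.511 and 0.625). Outside the comparison averaged over marrows, no pathway gene was called in any of the other 7 comparisons.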

How the data were processed

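RNA-seq was done on frozen colon tumours (TruSeq libraries, single-end reads, 1 lane; biological replicates, per the labels). Per the submitters' processing notes, TopHat and Bowtie2 were used with GRCm38 (mm10). Tool versions, the counting tool, its annotation and its strand setting are details not given in the sources used here. Values deposited by the authors were taken to be raw read counts per gene. The 5 entries that name no gene (49.8% to 59.6% of each total, mostly alignments that were not unique) were left out, and columns of no sample numbered 0.

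The members and gene lists were chosen with earlier results of these data known. All members were named. Of each other pathway list, called genes were named, and otherwise up to 2 genes with the smallest p between hosts, and for each member the 2 most alike genes (predicted genes, clones and pseudogenes left out).

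Counts were fitted with edgeR 4.0.16 (R 4.3.3; filterByExpr with a minimum count of 10, which left 15060 genes; TMM; robust quasi-likelihood) on all 12 libraries with 1 coefficient a group. Tests were two-sided, with Benjamini-Hochberg adjustment over all tested genes and a threshold of 0.05. The script was tested on simulated data. Alternatives used DESeq2 1.42.0, limma 3.58.1 (voom), other filters, covariates and libraries left out. CPM used TMM-scaled library sizes, and log2 CPM a prior count of 2. Lengths came from GENCODE M21. Pair permutations (scipy 1.17.1) numbered 100000 over 12 libraries, and all 720 over 6, where the smallest p is 0.00139.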

Additional observations from a re-analysis of the deposited data

How the results depend on the processing

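The count of called members was 0 in 8 comparisons under each of 23 other settings that could be run (189 counts in all, the reported fit included). Of 1810 member fold changes under alternatives, 0 were called and 151 changed sign; the lowest adjusted p of a member under any setting was 0.0871. DESeq2 size factors, the Wald test and the fit of only the 2 groups moved Timp3 with St2-/- marrow to 0.0022, 0.0022 and 0.014. With limma-voom, Mmp3 averaged over marrows was -0.21, and with WT marrow Mmp9, Timp1 and Timp2 were -0.57, -0.15 and -0.13. Weeks after AOM as a covariate gave Mmp3 0.21 and Mmp13 0.26 with WT marrow, and Timp3 -0.021 in the interaction. Replicate numbers did not pair the libraries (18 correlations of deviations, -0.44 to 0.308, 5 over 0.1); with the replicate block the counts of called members stayed 0, Mmp13 with WT marrow was 0.063, and Plgrkt lost its call at -0.88. The next 3 alternatives were chosen after seeing the data. The smooth muscle score as a covariate gave, with WT marrow, Mmp13 0.15, Timp1 -0.13 and Timp2 -0.64, and, with St2-/- marrow, Timp3 0.41. The epithelium score gave, averaged over marrows, Mmp10 -0.0034, Mmp14 -0.18, Timp1 -0.21 and Timp2 -0.48; with WT marrow Mmp9 -0.027, Timp1 -0.20 and Timp2 -0.46; with St2-/- marrow Mmp2 -0.60, Timp1 -0.22 and Timp2 -0.50; and in the interaction Timp1 -0.027, Timp2 -0.041 and Timp3 -0.16. Without WT => St2-/- replicates 2 and 3 together, Mmp7 was 0.037 and Timp2 -0.076 averaged over marrows, and with WT marrow Mmp3 was 0.073, Mmp13 0.46, Timp1 -0.19 and Timp2 -0.62. The cause of these sign changes was not tested.

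Leaving out 1 library at a time changed the sign of 30 of 120 member values for the marrow averaged over hosts, 10 of 120 in WT hosts, 5 of 120 in St2-/- hosts and 11 of 120 for full against no deficiency. For the host comparisons and the interaction it changed signs within these ranges. Averaged over marrows they were -0.018 to 0.83 for Mmp10, -0.010 to 0.23 for Mmp14, -0.46 to 0.012 for Mmp2, -0.12 to 1.05 for Mmp3, -0.41 to 0.0029 for Mmp7 and -0.20 to 0.15 for Timp3. With WT marrow they were -0.51 to 0.95 for Mmp13, -0.54 to 1.26 for Mmp3, -0.17 to 0.89 for Mmp9, -0.20 to 0.47 for Timp1, -0.43 to 0.48 for Timp2 and -0.41 to 0.29 for Timp3. With St2-/- marrow they were -0.16 to 1.72 for Mmp3 and -0.12 to 0.18 for Timp3, and in the interaction -0.42 to 1.80 for Mmp3, -0.0031 to 0.77 for Timp1, -0.0050 to 0.90 for Timp2 and -0.30 to 0.43 for Timp3. The r of Mmp14 and Timp2 was 0.543 to 0.744, past the threshold except without WT => WT replicate 1, and that of Mmp2 and Timp3 0.538 to 0.724, past it without 3 libraries and not without the other 9. Depth was similar across libraries, and the small number of libraries limits the precision.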
